A study of Homo sapiens with 4 samples.

Results

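The genes described here act in homologous recombination, in the Fanconi anaemia pathway, in the checkpoint kinase relay and in mismatch repair. They were chosen by symbol, and each was read from its probe set, with the brightest one standing for a gene that had several. Of 43 genes listed, 37 had a probe set with that name among 17687 named genes, and BRCA2, RAD54B, RBBP8, FANCA, FANCD2 and ATRIP were not analysed here. Expression was measured on Affymetrix arrays in Li-7 and HEP-G2 cells, a pair of established human liver cancer lines. Each line had 1 array of cells given a mimic of the microRNA miR-4730, a synthetic copy of it, and 1 array of cells given a negative control of the same supplier, which the labels also call a control vector. The mimic was transfected at a final 3 nM, 24 h after seeding, with a lipid reagent. Li-7 cells grew in RPMI-1640 and HEP-G2 cells in DMEM, so line and medium cannot be told apart. No group had a second array.

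Homologous recombination copies the sister chromatid to mend a broken DNA molecule. The broken ends are trimmed to single strands, the BRCA proteins and their partners prepare these strands to invade the sister duplex, and the joined molecules are later resolved. The Fanconi pathway unhooks crosslinks between the DNA strands by attaching ubiquitin to FANCI and FANCD2. ATM and ATR sense breaks and stalled forks and signal through CHEK2 and CHEK1. Many of these genes are known to be transcribed mainly as cells enter S phase, where a sister copy becomes available.

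The mature microRNA that the mimic is named for is shown with its seed, bases 2 to 8, in capitals, because the seed is what a microRNA pairs with its targets. The sequence is that of RefSeq (GRCh38.p14, chr17:80419427-80419449, plus strand), and the sequence of the commercial mimic itself was not used here.
hsa-miR-4730: cUGGCGGAgcccauuccaugcca

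HMGA1, the chromatin protein that the series names as target, stood at 10.91 on the mimic array and 14.93 on the control array of Li-7, and at 11.61 (mimic) and 14.79 (control) in HEP-G2. It had the lowest mean change of all genes tested, -3.59 (SE 0.29, limma, adjusted p = 0.0241). All values are on the deposited log2-like scale, where 1 unit is taken as 2-fold. On each array, 612 negative control probe sets have a 95th percentile, here called the negative control percentile, under which the size of a difference is uncertain. It was 7.99 on the Li-7 mimic, 8.72 on the Li-7 control, 8.20 on the HEP-G2 mimic and 8.35 on the HEP-G2 control array. Of the 37 repair genes, 14 lay above it on all 4 arrays and 9 on none. Of 15 liver markers measured, 4 lay above it on the mimic array and 2 on the control array of Li-7, where the keratins KRT8 and KRT18 were the 2, and 14 on either array of HEP-G2. ALB, albumin, was at 7.19 (mimic) and 7.30 (control) in Li-7, under the percentile, and at 12.21 (mimic) and 12.46 (control) in HEP-G2. Of 11 markers of blood, endothelial and stromal cells measured, CD68 and LYZ lay above it on all 4 arrays, ACTA2 in HEP-G2, and the other 8 on no array.

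With the mimic, 4 recombination genes fell in the test common to both lines, MND1, RAD54L, BRCA1 and BRIP1. No member rose. The median mean change of the 37 genes was -0.81, against 0.03 for all 12381 genes tested, and 33 of the 37 had a negative mean change. In 30 members (81.1%) the value was lower in both lines, where 31.0% of all genes were. Differences of at least 2-fold in both lines were seen in 12 members, all of them lower, against 1.76% of all genes. In bulk samples, fewer cells of a type and less RNA per cell cannot be told apart.

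The test was limma's, with cell line and treatment in the model, so its error is the disagreement between the lines and not a spread between cultures. Such a test favours genes with like changes in both lines. Benjamini-Hochberg adjustment ran over all 12381 genes, and all 37 members with a probe set had passed the filter on low values. At an adjusted p of 0.05, 4 of 37 members were called lower (10.8%), where 0.339% of all genes were called lower. None was called higher, against 0.0808% of all genes. At an unadjusted p of 0.05, 23 members were lower, where 9.71% of all genes were, and 0 were higher. The calls were close to the threshold, with adjusted p values of 0.0445 to 0.0498. All 4 were lost after cyclic loess normalization (adjusted p values of 0.0664 to 0.0713). They were also lost with unmoderated variances, where 1 gene was called over all genes, and in a model of treatment alone, where 0 were. The loss under these fits is therefore not particular to the members. An unadjusted p under 0.05 was found for 7 members with unmoderated variances and for 2 in the model of treatment alone. The share of all genes was not counted for these fits, so these counts have no background. After quantile normalization 13 members passed, and over all genes 273 were called lower and 192 higher, against 42 and 10 as deposited.

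**Figure D1:**
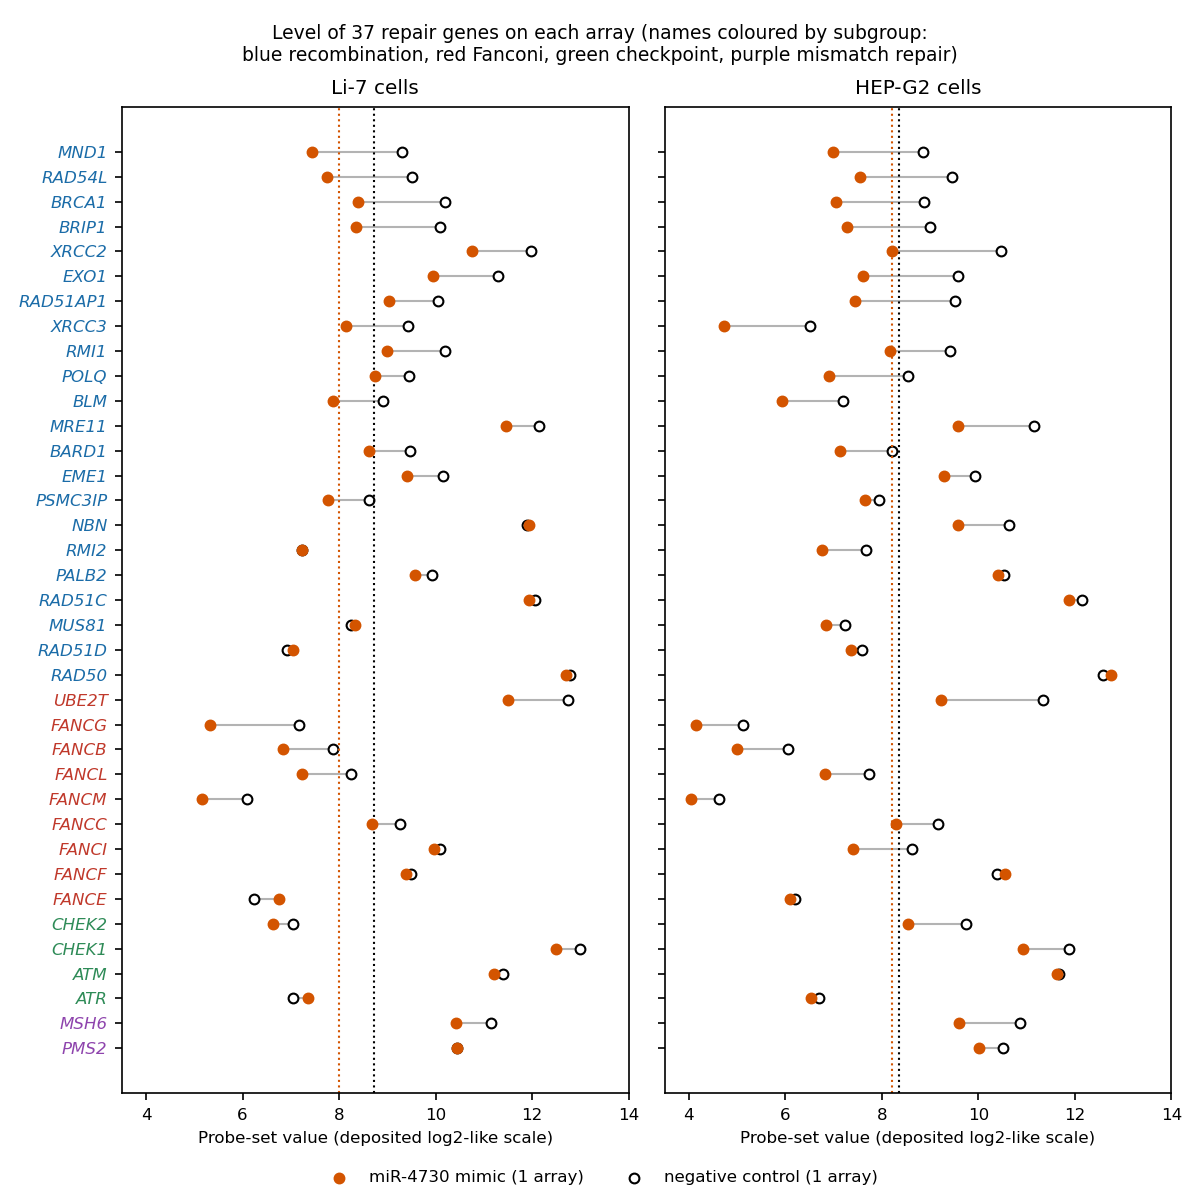
Values of the 37 repair genes (horizontal axis, deposited log2-like scale) on the mimic array (filled) and the negative control array (open) of Li-7 (left) and HEP-G2 (right), ordered within each subgroup by mean change. Dotted lines mark the negative control percentile of each array, 7.99 and 8.72 in Li-7 and 8.20 and 8.35 in HEP-G2 (mimic and control). The mimic point lies to the left of the control point in both lines for 30 of the 37 genes.

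By subgroup, the median mean change was -1.14 in 22 recombination genes, -0.76 in 9 Fanconi genes, -0.42 in 4 checkpoint genes and -0.63 in 2 mismatch repair genes. The 4 calls were all in the recombination subgroup, in which BRIP1, also counted among the Fanconi genes, was placed. Unadjusted p values under 0.05 with a negative change were found for 14 recombination, 6 Fanconi, 2 checkpoint genes and 1 mismatch repair gene. In Li-7 taken alone, 14 of the 37 members were at least 2-fold lower, where 4.12% of all genes were. In HEP-G2 19 were, where 6.28% of all genes were. No member was 2-fold higher in either line, against 3.72% of all genes in Li-7 and 5.77% in HEP-G2. Differences within a line are between single arrays and carry no test.

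The promoter windows of the 4 genes that fell are shown because members that moved together can be compared there, with that of RAD50, a recombination gene with differences near 0, for contrast. Each window runs from 250 bases before to 50 after an annotated start (RefSeq, GRCh38.p14), 5′ to 3′ on the strand of the gene. Capitals mark the letters TTCCCGC or TTGGCGC on either strand. These are short forms of the site bound by E2F factors, which drive genes of S phase. Where a gene had several windows, the one with most matches is given.
MND1, chr4:153344399-153344698, plus strand: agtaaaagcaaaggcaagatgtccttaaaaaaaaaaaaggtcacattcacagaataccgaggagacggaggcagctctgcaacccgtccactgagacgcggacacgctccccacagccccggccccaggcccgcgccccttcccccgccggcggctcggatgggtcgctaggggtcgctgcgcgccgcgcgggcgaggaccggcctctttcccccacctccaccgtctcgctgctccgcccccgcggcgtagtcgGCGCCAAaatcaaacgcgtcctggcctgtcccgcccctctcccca
RAD54L, chr1:46247438-46247737, plus strand: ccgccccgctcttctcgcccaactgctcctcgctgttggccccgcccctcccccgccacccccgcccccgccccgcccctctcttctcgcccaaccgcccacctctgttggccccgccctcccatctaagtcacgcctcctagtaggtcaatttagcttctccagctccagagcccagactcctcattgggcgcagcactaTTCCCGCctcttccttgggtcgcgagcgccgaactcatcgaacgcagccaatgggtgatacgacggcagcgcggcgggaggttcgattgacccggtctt
BRCA1, chr17:43125315-43125614, minus strand: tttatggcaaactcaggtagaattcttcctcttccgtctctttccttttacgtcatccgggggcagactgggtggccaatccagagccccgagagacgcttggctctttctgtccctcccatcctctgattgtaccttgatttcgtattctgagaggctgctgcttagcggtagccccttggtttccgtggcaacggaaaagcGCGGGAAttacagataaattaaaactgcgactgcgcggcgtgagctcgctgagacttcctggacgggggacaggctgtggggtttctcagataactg
BRIP1, chr17:61863479-61863778, minus strand: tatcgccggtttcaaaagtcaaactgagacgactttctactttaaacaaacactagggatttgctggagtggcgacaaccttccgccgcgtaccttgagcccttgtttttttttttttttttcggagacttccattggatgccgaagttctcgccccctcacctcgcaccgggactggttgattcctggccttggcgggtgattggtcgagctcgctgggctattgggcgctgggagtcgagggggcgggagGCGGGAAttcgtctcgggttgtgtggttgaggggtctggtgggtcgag
RAD50, chr5:132556727-132557026, plus strand: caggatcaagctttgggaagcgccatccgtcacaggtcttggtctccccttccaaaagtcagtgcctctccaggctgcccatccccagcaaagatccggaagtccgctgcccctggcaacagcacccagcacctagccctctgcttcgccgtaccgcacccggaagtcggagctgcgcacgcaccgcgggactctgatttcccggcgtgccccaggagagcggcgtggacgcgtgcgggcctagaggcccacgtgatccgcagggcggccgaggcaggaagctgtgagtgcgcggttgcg

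Each of the 4 windows of genes that fell held 1 match, and the RAD50 window held 0. MND1, RAD54L and BRCA1 had 2 windows each, and printing the one with most matches favours a match. RAD50 was picked for contrast, so these windows are an illustration and not a result. Counting from 1 at the first transcribed base, with negative positions before it, the match began at 6 in MND1, at -49 in RAD54L, at -47 in BRCA1 and at 3 in BRIP1. Of 34 members with a window in the RefSeq table, 19 (55.9%) held these letters in at least 1 window, against 17.4% of 10168 tested genes with a window and 9.23% of all 35116 windows. The 19 had a median mean change of -1.17, and the 15 without the letters one of -0.26. The order was the same in each line, with medians of -1.02 (with) and -0.35 (without) in Li-7 and of -1.27 (with) and -0.52 (without) in HEP-G2. Among all tested genes with a window the medians were -0.08 with the letters and 0.04 without. Exceptions ran both ways. FANCE (0.20) and RAD51D (-0.06) held the letters, while UBE2T (-1.68), EXO1 (-1.66), MRE11 (-1.13) and FANCB (-1.06) did not.

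**Figure D2:**
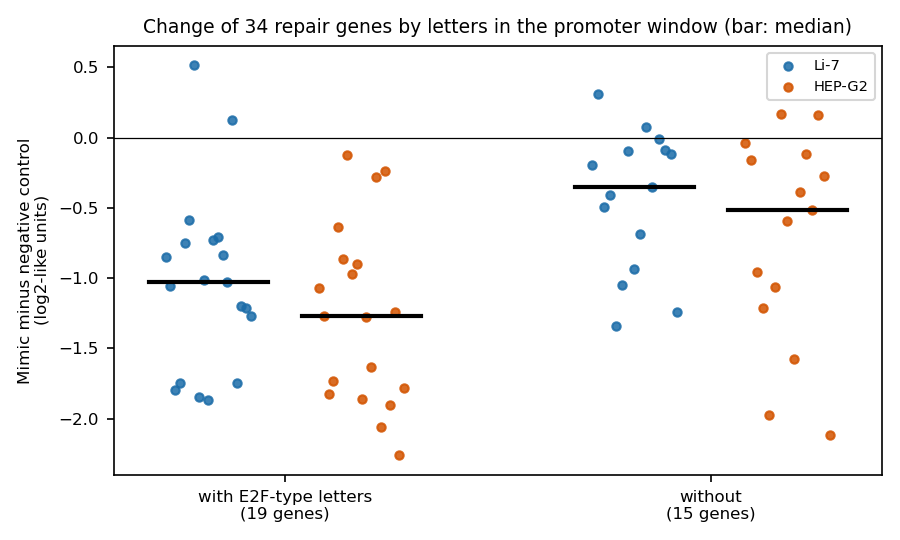
Mimic minus negative control (vertical axis, log2-like units) of 34 repair genes, split by whether a promoter window holds TTCCCGC or TTGGCGC on either strand, with Li-7 in blue and HEP-G2 in orange. Points are genes and bars are medians, which lie at -1.02 (Li-7) and -1.27 (HEP-G2) for the 19 genes with the letters and at -0.35 (Li-7) and -0.52 (HEP-G2) for the 15 without.

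A pair of other motifs was searched as well. The CCAAT box, which the factor NF-Y binds, was in 19 of the 34 members (55.9%), against 43.5% of the tested genes with a window and 34.6% of all windows. Medians were -1.003 with it and -0.96 without it. By line they were -0.83 (with) and -0.75 (without) in Li-7, and -1.24 (with) and -0.90 (without) in HEP-G2. TTTGAA or TTCGAA, forms of the element known from genes of G2 and mitosis, were on either strand in 5 members (14.7%), against 16.5% of the tested genes with a window and 16.4% of all windows. Their medians were -1.17 with these letters and -0.96 without. In Li-7 the medians were -0.70 (with) and -0.83 (without), and in HEP-G2 -1.63 (with) and -0.97 (without), so the lines had opposite orders. These counts describe the letters in the windows and were not tested, and some genes had several windows.

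In the BRCA group, BRCA1 and its helicase partner BRIP1 fell. BRCA1, a ubiquitin ligase that directs breaks to recombination, stood at 8.40 on the mimic array and 10.19 on the control array in Li-7. In HEP-G2 it was at 7.04 with the mimic and 8.87 in the control. The differences of -1.79 (Li-7) and -1.83 (HEP-G2) gave a mean change of -1.81 (SE 0.24, 2 lines), or 3.51-fold lower (limma, adjusted p = 0.0445). The change in HEP-G2 minus that in Li-7 was -0.03, and of the 4 values only that of the HEP-G2 mimic array lay under the negative control percentile. BRIP1, a helicase also counted among the Fanconi genes, was at 8.34 with the mimic and 10.09 in the control of Li-7, and at 7.27 (mimic) and 9.003 (control) in HEP-G2. Its mean change was -1.74 (SE 0.24), 3.34-fold lower (limma, adjusted p = 0.0498), with the highest adjusted p of the 4 calls. Its HEP-G2 mimic value lay under the negative control percentile, so the size of the fall there is uncertain, as it is for BRCA1. BRIP1 was lost with robust moderation (adjusted p = 0.0504) and with probe sets averaged (adjusted p = 0.0505). Its mean change was the same in both fits, -1.74, so its own values had not moved.

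BARD1, the obligate partner of BRCA1 in its ligase, stood at 8.61 with the mimic and 9.46 in the control of Li-7, and at 7.14 (mimic) and 8.21 (control) in HEP-G2. Its mean change of -0.96 did not pass (SE 0.25, limma's adjusted p = 0.123), and both HEP-G2 values lay under the negative control percentile. PALB2, which bridges BRCA1 and BRCA2, had differences of -0.35 (Li-7) and -0.12 (HEP-G2) and lay above the percentile on all arrays. Within 1 group of partners the mean change therefore ranged from -1.81 to -0.23.

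Strand exchange held the other calls, RAD54L and MND1. RAD54L, a motor protein of strand invasion, was at 7.76 with the mimic and 9.50 in the control of Li-7, and at 7.56 (mimic) and 9.46 (control) in HEP-G2. The mean change was -1.83 (SE 0.25), 3.54-fold lower (limma, adjusted p = 0.0445). MND1, best known from meiotic recombination, where it pairs with PSMC3IP, was at 7.43 with the mimic and 9.30 in the control of Li-7, and at 6.98 (mimic) and 8.84 (control) in HEP-G2. Its mean change of -1.86 (SE 0.24), 3.64-fold lower, was the lowest of the 37 genes (limma, adjusted p = 0.0445). For both genes the 2 control values lay above the negative control percentile and the 2 mimic values under it, so the sizes of these changes are uncertain. PSMC3IP, the partner of MND1, lay under the percentile on all arrays, with differences of -0.83 (Li-7) and -0.28 (HEP-G2).

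A second set of strand exchange genes was at least 2-fold lower in both lines without passing the test. XRCC2, which acts in strand exchange, stood at 10.76 with the mimic and 11.97 in the control of Li-7, and at 8.20 (mimic) and 10.47 (control) in HEP-G2. Its mean change was -1.74 (SE 0.31, limma's adjusted p = 0.0738), as large as that of BRIP1, but the lines differed more. RAD51AP1, which stimulates strand exchange, was at 9.02 with the mimic and 10.05 in the control of Li-7, and at 7.45 (mimic) and 9.51 (control) in HEP-G2 (mean change -1.54, SE 0.31, adjusted p = 0.0851 with limma). XRCC3, which works with RAD51C, was at 8.15 with the mimic and 9.42 in the control of Li-7, and at 4.73 (mimic) and 6.51 (control) in HEP-G2 (mean change -1.53, SE 0.26, adjusted p = 0.0685 with limma). Both HEP-G2 values of XRCC3 lay under the negative control percentile, and so did the HEP-G2 mimic value of RAD51AP1. That of XRCC2 was barely above it, both at 8.20. RAD51C and RAD51D had small differences. RAD51C, above the percentile on all arrays, had differences of -0.12 (Li-7) and -0.27 (HEP-G2), and RAD51D, under the percentile on all arrays, had 0.13 (Li-7) and -0.24 (HEP-G2).

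Among the genes that trim broken ends, the exonuclease EXO1 had the largest difference. It stood at 9.94 with the mimic and 11.28 in the control of Li-7, and at 7.60 (mimic) and 9.57 (control) in HEP-G2, with a mean change of -1.66 (SE 0.27, limma's adjusted p = 0.0617). The HEP-G2 mimic value of EXO1 lay under the negative control percentile. The MRE11, RAD50 and NBN proteins form a single complex that senses breaks, and their genes did not share 1 pattern. MRE11, the nuclease, was at 11.46 with the mimic and 12.14 in the control of Li-7, and at 9.58 (mimic) and 11.15 (control) in HEP-G2. NBN, the subunit that recruits ATM, was at 11.93 with the mimic and 11.89 in the control of Li-7, and at 9.57 (mimic) and 10.64 (control) in HEP-G2. RAD50, the structural subunit, was at 12.71 with the mimic and 12.79 in the control of Li-7, and at 12.75 (mimic) and 12.59 (control) in HEP-G2. MRE11 had lower mimic values in both lines and NBN in HEP-G2, while RAD50 had opposite small differences, and none of the 3 passed (mean changes -1.13, -0.51 and 0.04, limma's adjusted p values 0.126, 0.433 and 0.961).

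Of the genes that process junctions, BLM and RMI1 were at least 2-fold lower in both lines without passing the test. BLM, the helicase lost in Bloom syndrome, stood at 7.86 with the mimic and 8.92 in the control of Li-7, and at 5.94 (mimic) and 7.20 (control) in HEP-G2 (mean change -1.16, SE 0.25, adjusted p = 0.0907 with limma). RMI1, its scaffold, was at 8.99 with the mimic and 10.19 in the control of Li-7, and at 8.17 (mimic) and 9.41 (control) in HEP-G2 (mean change -1.22, SE 0.24, adjusted p = 0.0850 with limma). RMI1 differed by -1.20 (Li-7) and -1.24 (HEP-G2), but its HEP-G2 mimic value lay under the negative control percentile, so equal sizes were not measured. Of BLM, only the Li-7 control value lay above it. RMI2, a further subunit of that complex, had differences of -0.01 (Li-7) and -0.91 (HEP-G2) and lay under the negative control percentile on all arrays. EME1 and MUS81 encode the partners of 1 nuclease. EME1 had differences of -0.75 (Li-7) and -0.63 (HEP-G2), and MUS81 of 0.08 (Li-7) and -0.39 (HEP-G2). POLQ, the polymerase of an error-prone alternative to recombination, was at 8.74 with the mimic and 9.44 in the control of Li-7, and at 6.90 (mimic) and 8.53 (control) in HEP-G2 (mean change -1.17, SE 0.30, adjusted p = 0.124 with limma). Its HEP-G2 mimic value lay under the percentile.

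In the Fanconi pathway, UBE2T and FANCI had the largest differences in HEP-G2. UBE2T, the ubiquitin conjugating enzyme, stood at 11.50 with the mimic and 12.74 in the control of Li-7, and at 9.23 (mimic) and 11.35 (control) in HEP-G2. All values were above the negative control percentile, and the mean change of -1.68 (SE 0.30) did not pass (limma's adjusted p = 0.0734). FANCI, a substrate of that step, was at 9.96 with the mimic and 10.08 in the control of Li-7, and at 7.40 (mimic) and 8.63 (control) in HEP-G2. FANCI thus differed by -0.12 (Li-7) and -1.23 (HEP-G2), and its HEP-G2 mimic value lay under the percentile. FANCL, the ubiquitin ligase, was at 7.23 with the mimic and 8.25 in the control of Li-7, and at 6.82 (mimic) and 7.73 (control) in HEP-G2, under the percentile on all arrays.

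Most core complex genes were dim. FANCG, an adaptor of the complex, was at 5.31 with the mimic and 7.16 in the control of Li-7, and at 4.15 (mimic) and 5.12 (control) in HEP-G2, a mean change of -1.41 (SE 0.30, adjusted p = 0.0893 with limma). FANCB, a subunit that works with FANCL, was at 6.83 with the mimic and 7.88 in the control of Li-7, and at 4.99 (mimic) and 6.06 (control) in HEP-G2. Of the 7 core genes measured, FANCB, FANCE, FANCG, FANCL and FANCM lay under the negative control percentile on all arrays, so their differences are uncertain in size. FANCC and FANCF lay above it on all 4. FANCC had differences of -0.59 (Li-7) and -0.86 (HEP-G2), and FANCF of -0.10 (Li-7) and 0.17 (HEP-G2). The translocase FANCM stood at -0.93 (Li-7) and -0.59 (HEP-G2), and FANCE at 0.52 (Li-7) and -0.12 (HEP-G2). None of the 9 Fanconi genes passed with limma, while 6 had an unadjusted p under 0.05. This count depends on the grouping, since BRIP1, which passed, was placed with the recombination genes.

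None of the checkpoint kinases passed the test. The upstream kinases had differences of -0.19 (Li-7) and -0.04 (HEP-G2) for ATM and of 0.31 (Li-7) and -0.16 (HEP-G2) for ATR. The downstream kinases had lower mimic values in both lines. CHEK1, the effector of ATR, stood at 12.50 with the mimic and 12.99 in the control of Li-7, and at 10.93 (mimic) and 11.88 (control) in HEP-G2 (mean change -0.72, SE 0.26, adjusted p = 0.202 with limma). CHEK2, the effector of ATM, was at 6.63 with the mimic and 7.04 in the control of Li-7, both under the negative control percentile, and at 8.54 (mimic) and 9.75 (control) in HEP-G2 (mean change -0.81, SE 0.29, adjusted p = 0.199 with limma). Of the 4 kinases, 2 had an unadjusted p under 0.05.

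Of the mismatch repair genes, MSH6, which recognises single mispairs, was at 10.41 with the mimic and 11.14 in the control of Li-7, and at 9.60 (mimic) and 10.87 (control) in HEP-G2. Its mean change was -1.003 (SE 0.26, adjusted p = 0.126 with limma). PMS2, a nuclease subunit, had differences of -0.01 (Li-7) and -0.52 (HEP-G2). PMS2 has 15 pseudogene copies by symbol in the RefSeq gene table and CHEK2 has 6, so their probe sets may take up signal of copies. BRCA1, MND1, RAD51AP1 and MRE11 have 1 each.

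Across the 37 genes, 26 had the more negative difference in HEP-G2 than in Li-7, where 51.6% of all genes did. Median differences were -1.06 in HEP-G2 and -0.73 in Li-7, against 0.02 in both for all genes tested. The lines' differences had a Pearson correlation of 0.73 across the 37 genes and of 0.47 across all 12381, with no array shared between the lines. The single-array differences of the 4 genes that fell were close in both lines, which the test favours. Of their 8 mimic values, 6 lay under the negative control percentile, so equal sizes were not measured. UBE2T, XRCC2, RAD51AP1 and EXO1 had larger differences than these 4 in HEP-G2 and smaller ones in Li-7. FANCG had the widest gap in the other direction, with -0.97 in HEP-G2 against -1.85 in Li-7. Whether the response differed between the lines could not be tested with 1 array per group.

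**Figure D3:**
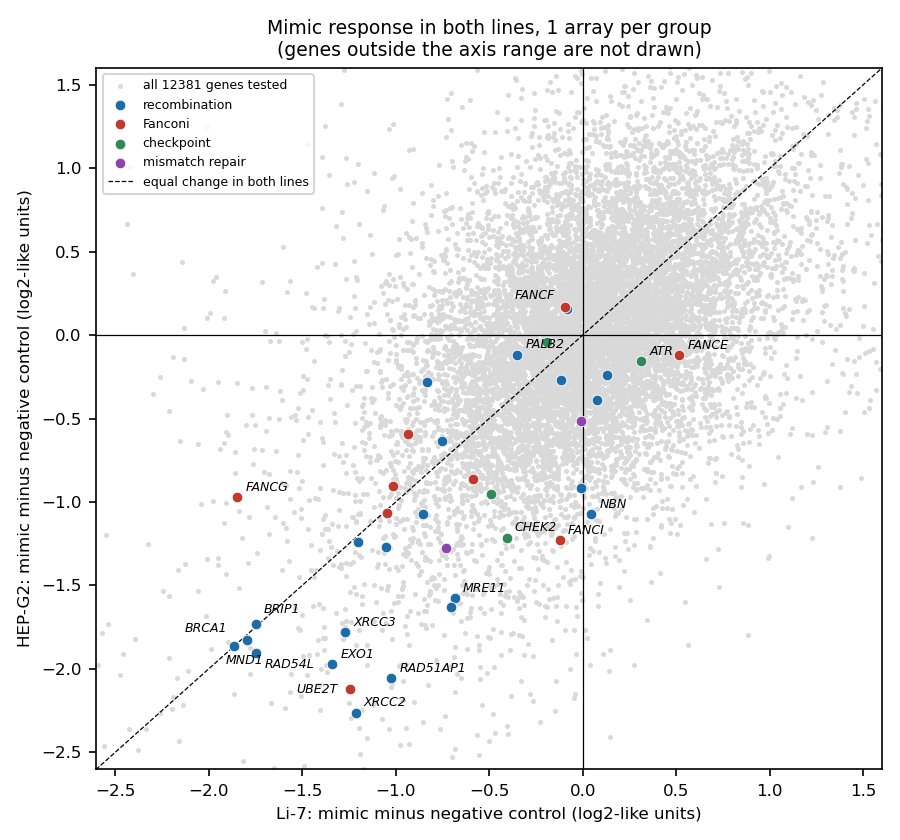
Mimic minus negative control in Li-7 (horizontal axis) and HEP-G2 (vertical axis), in log2-like units, for the repair genes coloured by subgroup over all 12381 genes tested in grey, with the dashed line at equal change. No repair gene lies in the upper right part of the plot, and MND1, BRCA1, BRIP1 and RAD54L lie on or next to the dashed line between -1.73 and -1.91 on both axes.

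Most of these genes had higher values in Li-7 than in HEP-G2 cells. In the line term of the same limma fit, 19 of 37 members were called higher in Li-7 (51.4%), where 24.3% of all genes were, and 2 were called lower (5.41%), where 20.7% of all genes were. On the control arrays alone 29 members were higher in Li-7, where 51.0% of all genes were. Among genes above the negative control percentile on all 4 arrays, XRCC2 had the largest difference, with a mean of 11.37 (Li-7) and 9.33 (HEP-G2) (difference 2.03, SE 0.31, limma's adjusted p = 0.00201). UBE2T (1.83), NBN (1.80) and MRE11 (1.43) followed. These differences average mimic and control arrays. On the control arrays alone they were 1.51 (XRCC2), 1.39 (UBE2T), 1.25 (NBN) and 0.99 (MRE11), with CHEK1 at 1.11. The HEP-G2 mimic value of XRCC2 was barely above the percentile, both at 8.20. XRCC3, BLM, BARD1, MUS81, FANCB, FANCG and FANCM were also called higher in Li-7. Each had both HEP-G2 values under the percentile, so the sizes of these differences were not measured. BRCA1, BRIP1, RAD51AP1, EXO1, RMI1, POLQ and FANCI, called higher too, had the HEP-G2 mimic value under it. The genes called lower in Li-7 were CHEK2, at a mean of 6.84 (Li-7) and 9.14 (HEP-G2), the Li-7 values lying under the percentile (difference -2.31, SE 0.29, limma's adjusted p = 0.00072), and FANCF, at 9.44 (Li-7) and 10.47 (HEP-G2) (difference -1.03, SE 0.25, limma's adjusted p = 0.0138). RAD54L and MND1, by contrast, were close in both lines (differences 0.12 and 0.45, adjusted p values of limma 0.726 and 0.179). The count of members called higher in Li-7 was 5 in a model of cell line alone and 0 with unmoderated variances. The share of all genes called was not counted for these fits, so the drop cannot be read as particular to the members.

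**Figure D4:**
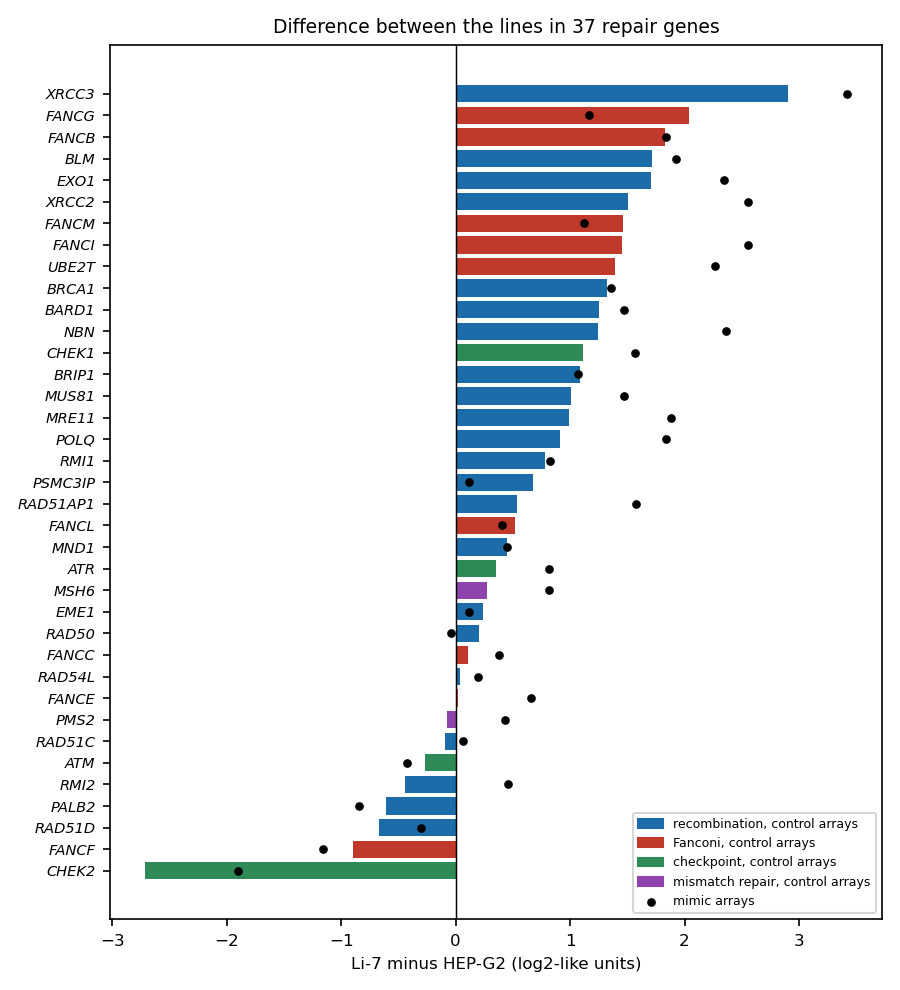
Li-7 minus HEP-G2 (horizontal axis, log2-like units) for the 37 repair genes, as bars for the negative control arrays coloured by subgroup and as black points for the mimic arrays. Bars of 29 genes lie to the right of 0, and CHEK2 lies farthest to the left on both kinds of array.

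Other repair genes were read from 8 lists taken from textbook pathways, 130 genes in all, of which 113 were tested. None passed limma's test, where 0.339% of all genes were called lower and 0.0808% higher, so a count of 0 among 113 is near the background. An unadjusted p under 0.05 was found for 33 with a lower value, where 9.71% of all genes had one, and for 2 with a higher value, where 9.75% did. Their median mean change was -0.32, between that of the 37 members and that of all genes. In Li-7, 8 of them were at least 2-fold lower, against 4.12% of all genes. In HEP-G2, 18 were, against 6.28%. In each line 1 gene was at least 2-fold higher, against 3.72% of all genes in Li-7 and 5.77% in HEP-G2. Both lines had lower values in 66 genes and higher values in 16, where 31.0% and 34.1% of all genes did.

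Medians of the mean change were lowest in the other recombination genes and in the other crosslink and junction genes. The order differed by line. In HEP-G2 the other checkpoint genes had the lowest median of the 8 lists, -0.88, against -0.86 in the other recombination genes. In Li-7 these medians were -0.13 (checkpoint) and -0.57 (recombination). The other recombination genes (15 tested, median -0.67) included HROB, which loads a helicase in recombination, at -0.69 (Li-7) and -1.38 (HEP-G2), and RAD51B, which works with RAD51C, at -0.68 (Li-7) and -1.43 (HEP-G2). The other crosslink and junction genes (23 tested, median -0.45) included the nuclease DNA2, at -0.95 (Li-7) and -1.97 (HEP-G2), and FAAP20, a partner of the core complex, at -1.58 (Li-7) and -1.24 (HEP-G2). All 4 of these genes lay under the negative control percentile on every array. The other checkpoint genes (14 tested, median -0.43) had mean changes between -1.69 and 0.96 and held CLSPN, the adaptor through which ATR activates CHEK1. CLSPN stood at 9.56 with the mimic and 11.02 in the control of Li-7, and at 8.10 (mimic) and 10.01 (control) in HEP-G2 (mean change -1.69, SE 0.26, adjusted p = 0.0589 with limma). Its HEP-G2 mimic value lay under the percentile. TIPIN, of the fork protection complex, was at -1.39 (Li-7) and -1.19 (HEP-G2).

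Break signalling (13 tested, median -0.27) held the largest difference of the 8 lists. H2AX, the histone variant phosphorylated around breaks, was at 12.22 with the mimic and 13.71 in the control of Li-7, and at 9.21 (mimic) and 11.82 (control) in HEP-G2 (mean change -2.05, SE 0.32, adjusted p = 0.0601 with limma). BABAM1, of the BRCA1-A complex, was at -0.59 (Li-7) and -0.61 (HEP-G2). The other mismatch repair genes (4 tested, median -0.41) included PCNA, the sliding clamp of replication, at 12.51 with the mimic and 13.95 in the control of Li-7, and at 13.03 (mimic) and 14.49 (control) in HEP-G2 (mean change -1.45, SE 0.24, adjusted p = 0.0664 with limma). MSH3 was at -0.33 (Li-7) and -0.52 (HEP-G2).

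The remaining 3 lists cover end joining, base excision and nucleotide excision. End joining genes (12 tested, median -0.29) had none at least 2-fold lower in either line, with APTX at -0.81 (Li-7) and -0.42 (HEP-G2) and POLL at -0.39 (Li-7) and -0.51 (HEP-G2). POLL lay under the negative control percentile on every array. Base and single-strand break repair genes (17 tested, median -0.27) included the glycosylases OGG1, at -1.39 (Li-7) and -0.64 (HEP-G2), and UNG, at -0.82 (Li-7) and -1.15 (HEP-G2). The Li-7 mimic value of OGG1 lay under the percentile, so the size of its difference there is uncertain. Nucleotide excision repair genes (15 tested) had a median of 0.11, with the helicase ERCC2 at 0.96 (Li-7) and 0.10 (HEP-G2) and GTF2H5 at -0.81 (Li-7) and -0.13 (HEP-G2). These medians were not tested against those of the members.

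**Figure D5:**
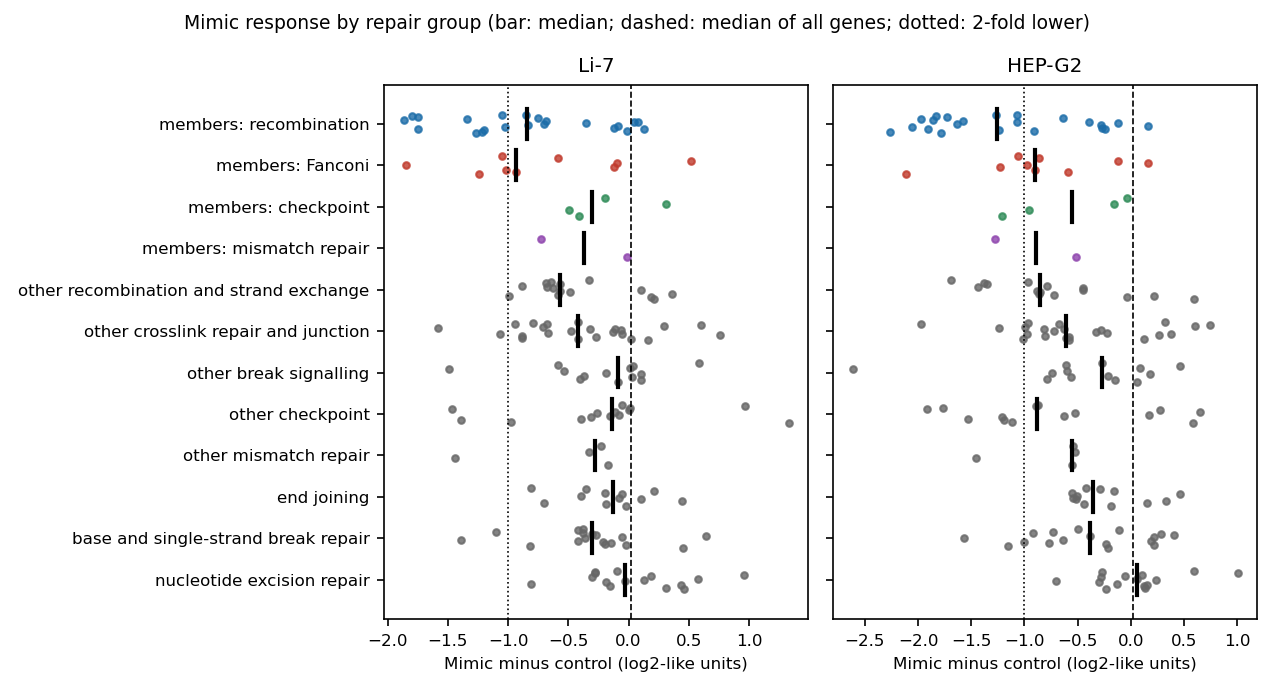
Mimic minus negative control (horizontal axis, log2-like units) in Li-7 (left) and HEP-G2 (right) for the 4 subgroups of members (coloured) and 8 other repair lists (grey), with 1 point per gene, bars at the medians, a dashed line at the median of all genes and a dotted line at 2-fold lower. The recombination members reach -1.87 (Li-7) and -2.26 (HEP-G2), while nucleotide excision repair genes lie around 0 in both lines.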

How the data were processed

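Total RNA of 4 cell samples was measured on Affymetrix arrays, 1 per group, with groups taken from the sample titles. The values the authors deposited were read as log2, 1 per probe set and array. Affymetrix Expression Console and Transcriptome Analysis Console were used, per the submitters' processing notes. For background correction, normalization, log base and genome build the answer is "not given in the sources used here". Values ran from 1.48 to 18.3, and folds hold only if the scale is log2.

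Of 24351 probe sets, 17709 carried 1 gene symbol in the platform annotation and 0 several, the others being controls or unnamed, and all 17709 Entrez identifiers matched the RefSeq table (GRCh38.p14). Genes with a mean value at or above the 30th percentile (4.90) were kept, which left 12381. No further normalization was applied. The fit used limma 3.58.1 in R 4.3.3 (lmFit and eBayes, cell line and treatment as terms, 1 residual degree of freedom, 5.85 prior degrees of freedom), was tested on simulated data, and was adjusted by Benjamini-Hochberg over all genes. SEs are the moderated ones. The number of arrays limits the precision. Alternatives were 3 normalizations, other filters, probe-set averaging, other variance estimates, models with 1 factor and a 1.5-fold limit.

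The members and the lists were chosen with earlier results of these data known; the promoter letters were searched after the changes had been seen. Values on every array were given for members with a call or a 2-fold difference in a line, and of the 8 other lists genes with a call and the 2 with the largest mean change. Any RefSeq promoter window of a gene was counted.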

Additional observations from a re-analysis of the deposited data

Results flagged for a closer look

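In 7 of the 37 repair genes the single arrays of the lines moved in opposite directions with the mimic. Of all 12381 genes tested, 4317 did so, a larger share. With 1 array per group, this opposition was not tested for any of them. NBN stood at -1.07 in HEP-G2 and 0.04 in Li-7 (HEP-G2 minus Li-7, -1.12), and FANCE at -0.12 in HEP-G2 and 0.52 in Li-7 (-0.64). For ATR the values were -0.16 in HEP-G2 and 0.31 in Li-7 (-0.47), for MUS81 -0.39 in HEP-G2 and 0.08 in Li-7 (-0.47), and for RAD51D -0.24 in HEP-G2 and 0.13 in Li-7 (-0.37). FANCF stood at 0.17 in HEP-G2 and -0.10 in Li-7 (0.26), and RAD50 at 0.16 in HEP-G2 and -0.09 in Li-7 (0.24). NBN, FANCF and RAD50 lay above the negative control percentile on each of the 4 arrays, MUS81 on 1 array, and FANCE, ATR and RAD51D on none.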

How the results depend on the processing

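The count of members called lower in the common test was 4 as deposited, with 42 genes called lower in all. It was 13 members after quantile normalization (273 genes lower), 11 with a filter at the median gene (239 genes lower), 10 with an intensity trend (253 genes lower) and 10 among genes above the negative control percentile on 2 arrays, a filter chosen after seeing the data (266 genes lower). It was 0 after cyclic loess (19 genes lower), with unmoderated variances (0 genes lower) and in a model of treatment alone (0 genes lower). Genes called higher numbered 10 as deposited, 192 after quantile normalization, 127 with the median filter, 158 with the trend, 161 with the percentile filter, 4 after cyclic loess, 1 with unmoderated variances and 0 in the model of treatment alone. Members with an unadjusted p under 0.05 numbered 23 as deposited, 7 with unmoderated variances and 2 in the model of treatment alone. The share of all genes under that p was not counted with unmoderated variances or with treatment alone, so those counts have no background. No member was called higher under any of these settings. After quantile normalization, median centring and cyclic loess, no member's mean change turned its sign. The filters, probe-set averaging, the variance estimates and the model of treatment alone left the mean change of each member tested unaltered. Those settings were therefore no test of the sign. The members' median change ran from -0.98, among the 26 members left by the percentile filter, to -0.78 after cyclic loess. In the line term, 19 members higher in Li-7 became 5 in a model of cell line alone and 0 with unmoderated variances, which also left 0 of the 2 called lower. The share of all genes called in the line term was not counted for these fits. Small line differences turned sign after median centring in RAD50 (-0.045), RAD54L (-0.0066) and RMI2 (-0.12), and after quantile normalization in RMI2 (-0.097). At 1.5-fold, 22 members were lower in Li-7 (14 at 2-fold) and 26 in HEP-G2 (19 at 2-fold). At this limit 0 members were higher in either line. The share of all genes lower at 1.5-fold was not counted, so these counts have no background to be read against. Cell line was already a term of the model, so mimic and control were compared within each line, and the model of treatment alone is the fit without that pairing. The labels give no replicate numbers for a further block.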
